A study of Arabidopsis thaliana with 4 samples.

Results

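Salicylic acid is the plant hormone of defence against biotrophic pathogens, and 10 Arabidopsis thaliana genes of its immune pathway are described here in seedlings of the fip1-2 mutant. The genes were taken by identifier as textbook members of the pathway. The rule itself uses no measured value, but earlier results of these data were known when the genes were chosen. All 10 were found among the 27654 genes of the deposited table. They are the synthesis genes ICS1 and EDS5, the EDS1 family genes EDS1, PAD4 and SAG101, the receptor gene NPR1, the amplifier gene ACD6, and the pathogenesis-related genes PR1, PR2 and PR5. Whole seedlings of the Columbia ecotype were profiled by RNA sequencing, with 2 control libraries and 2 fip1-2 libraries. The control plants carried SKP2B::GUS, a promoter reporter line, and the comparison group was the mutant fip1-2, named for the polyadenylation factor FIP1; the labels state neither whether fip1-2 carries the same reporter nor what kind of mutation it is, and the series' design text calls the control wild type. Both groups were grown on Murashige and Skoog medium for 8 units of time, whose unit the labels leave out, and no pathogen or hormone treatment is named.

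Most salicylic acid of an infected Arabidopsis leaf is made in plastids from isochorismate, which ICS1 forms and EDS5 carries out of the plastid. EDS1 pairs with PAD4 or SAG101 to pass on signals from intracellular immune receptors, and EDS1 with PAD4 also raises salicylic acid. NPR1 binds salicylic acid and, with TGA transcription factors, turns on genes such as PR1, while WRKY transcription factors bind W-box sequences in many defence promoters.

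In the mutant 3 of the 10 genes were far lower, the amplifier ACD6 and the target genes PR1 and PR2, while the third target gene, PR5, did not pass the test. PR1, PR2 and ACD6 fell to 5.93%, 5.11% and 7.57% of their control means, EDS5 to 56.5%, and PAD4 and EDS1 by less. ICS1 moved the other way and rose 1.67-fold. Of the 10 genes, 6 were lower and 1 higher at a limma adjusted p below 0.05, and SAG101, NPR1 and PR5 did not pass. Over all 19931 genes tested, 26.8% were called lower and 27.0% higher, together 53.8%, so a call alone says little here and the sizes carry the description. A log2 fold change of -3 or less, that is at least 8-fold lower, was called in 21 of all genes tested (0.105%), and PR1, PR2 and ACD6 were 3 of these. Without control replicate 2 PR1 and PR2 stood at -2.88 and -2.94, and both lost their calls with robust variance estimation. The median log2 fold change of the 10 genes was -0.38, against -0.0043 over all genes tested, whose quartiles were -0.29 and 0.29.

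The 4 promoters shown here belong to PR2 and ACD6, which fell far, and to the synthesis pair ICS1 and EDS5, which moved in opposite directions. Each is the 250 bases before the annotated start of the gene, 5′ to 3′ on the gene's own strand, from the RefSeq annotation of TAIR10.1; the sources do not name the build of the deposited table, and no position was taken from it. Capitals mark TTGAC, the core of the W-box bound by WRKY factors, or its reverse complement GTCAA.
PR2, chr3:21189968-21190217, minus strand: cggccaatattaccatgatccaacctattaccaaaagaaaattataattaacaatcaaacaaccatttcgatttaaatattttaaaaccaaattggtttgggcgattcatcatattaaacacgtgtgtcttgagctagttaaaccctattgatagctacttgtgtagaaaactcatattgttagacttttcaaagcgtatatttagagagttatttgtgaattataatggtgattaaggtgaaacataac
ACD6, chr4:8293915-8294164, plus strand: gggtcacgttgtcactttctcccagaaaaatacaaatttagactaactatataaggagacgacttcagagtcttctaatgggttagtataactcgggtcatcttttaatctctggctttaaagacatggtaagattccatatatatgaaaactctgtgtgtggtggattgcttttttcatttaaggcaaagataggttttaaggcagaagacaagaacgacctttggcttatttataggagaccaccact
ICS1, chr1:28070045-28070294, plus strand: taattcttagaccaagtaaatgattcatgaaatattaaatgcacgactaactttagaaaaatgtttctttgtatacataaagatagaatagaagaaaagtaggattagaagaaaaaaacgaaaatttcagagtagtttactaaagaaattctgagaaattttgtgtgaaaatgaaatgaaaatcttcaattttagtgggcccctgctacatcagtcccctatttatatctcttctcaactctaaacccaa
EDS5, chr4:18185187-18185436, plus strand: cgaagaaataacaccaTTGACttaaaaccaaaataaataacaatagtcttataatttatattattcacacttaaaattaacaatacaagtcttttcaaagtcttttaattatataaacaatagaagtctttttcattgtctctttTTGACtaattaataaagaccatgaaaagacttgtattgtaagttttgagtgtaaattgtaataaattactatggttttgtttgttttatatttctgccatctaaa
TTGAC occurred on either strand in 4 of the 9 windows searched (EDS5 with 2 matches, and EDS1, SAG101 and PR5 with 1 each) and in 44.9% of the windows of 27443 nuclear protein-coding genes. The longer forms TTGACT and TTGACC occurred in 3 and 0 of the 9, and in 19.1% and 12.2% of all windows. The match of SAG101 had neither form, and its window overlaps the gene AT5G14920. TGACG, the core of the element bound by TGA factors, occurred in none of the 9 and in 18.6% of all windows, and none of them held TTGACG, the overlap of both motifs. Among the printed windows EDS5 thus held the W-box core and PR2, ACD6 and ICS1 did not; sequence farther upstream was not searched.

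Values are normalised read counts, that is reads per gene divided by a size factor of each library, and are given as mean ± SD with n = 2 libraries per group. The libraries held between 20874114 and 21104606 reads. Differences were tested with limma on log2(value + 2), and fold changes in the text are ratios of the group means unless a log2 fold change is named. With n = 2 an exact permutation test of a single gene cannot go below p = 0.333, so limma draws on the variance of genes of like level, and wide replicates do not keep a gene from passing. Separate cultures are not stated for the replicates, and p-values then measure a spread that may be technical. FIP1 (AT5G58040) stood at 1796 and 1912 in control and at 5217 and 5145 in fip1-2, 2.79-fold higher in the mutant; with the kind of mutation unstated this level does not check the labels beyond a difference between groups. Listed shoot markers summed to between 378222 and 427888 in the 4 libraries and root markers to between 5600 and 12655, so both organs of the labelled whole seedlings were present.

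**Figure D1:**
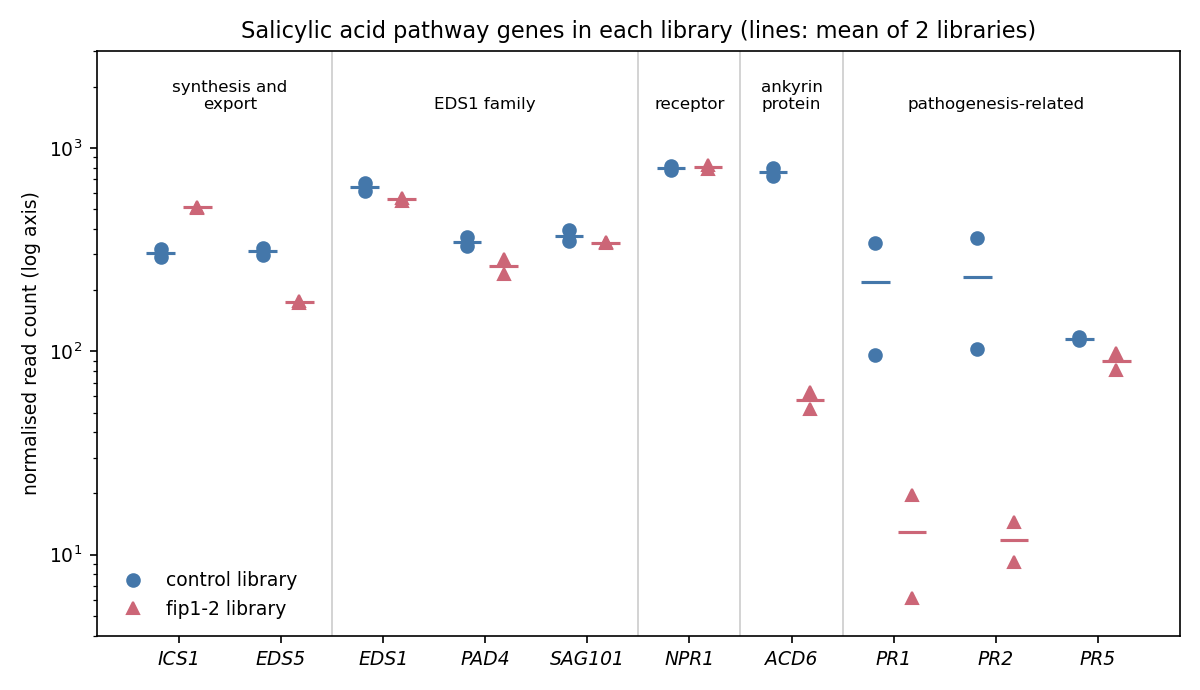
Normalised read counts (log axis) of the 10 genes in each library, grouped by role; points are libraries (circles control, triangles fip1-2) and short lines are means of 2. PR1, PR2 and ACD6 are the only genes of the 10 with fip1-2 values below 70, and ICS1 is the only one with both fip1-2 libraries above both control libraries.

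The 2 synthesis genes moved apart. ICS1 (AT1G74710, EDS16 in the reference), for the plastid isochorismate synthase, stood at 291 and 319 in the control libraries and at 511 and 508 in the fip1-2 libraries. Both mutant libraries lay above both control libraries and close to each other. The rise was 1.67-fold, from 305 ± 19.97 to 509 ± 2.58 (log2 fold change 0.74 ± 0.08 SE, limma adjusted p = 3.91e-06). EDS5 (AT4G39030), for the transporter of the plastid envelope, stood at 298 and 321 in control and at 172 and 177 in fip1-2. Its mutant libraries both lay below control, at 175 ± 3.80 against 310 ± 16.6 (log2 fold change -0.82 ± 0.10 SE, limma adjusted p = 1.02e-05). Per kb of transcript, the levels of ICS1 and EDS5 were 144 ± 9.42 and 137 ± 7.33 in control and 240 ± 1.22 and 77.3 ± 1.68 in fip1-2, so they overlapped in control and lay apart in the mutant. EDS5 overlaps AT4G39040 on the opposite strand over 213 bases, and reads there cannot be told apart without strand.

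ICS2 (AT1G18870), a second isochorismate synthase, rose too, from 587 and 572 to 982 and 722 (log2 fold change 0.54 ± 0.11 SE, limma adjusted p = 0.000592). The ICS2 call was lost without a variance trend (adjusted p = 0.0622), and leaving out fip1-2 replicate 1 gave 0.32, against 0.76 when fip1-2 replicate 2 was left out. The transcripts of ICS1 and ICS2 share no run of 31 bases. AT2G21340, listed as a relative of EDS5, also rose, from 591 and 591 to 944 and 954 (log2 fold change 0.68 ± 0.06 SE). EDS5 and its listed relative therefore differed in direction in the same libraries.

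Further along the same route, PBS3 and EPS1 fell. PBS3 (AT5G13320), the enzyme that joins isochorismate to glutamate, stood at 66.3 and 93.2 in control and at 6.15 and 9.34 in fip1-2, 9.71% of the control mean. Its log2 fold change was -3.07 ± 0.29 SE (limma adjusted p = 7.17e-07), or -2.47 with a pseudocount of 8. EPS1 (AT5G67160), which promotes the release of salicylic acid from that conjugate, fell from 99.0 and 107 to 49.2 and 51.9, and SARD1 (AT1G73805) and CBP60G (AT5G26920), transcription factors that act on ICS1 in immunity, fell with log2 fold changes of -0.61 ± 0.22 SE and -0.49 ± 0.13 SE. SARD1 lost its call in 6 of 16 alternatives, among them without control replicate 1 (-0.62), control replicate 2 (-0.60) or fip1-2 replicate 1 (-0.37), and CBP60G lost its with DESeq2. The phenylalanine ammonia-lyase genes, of the other route to salicylic acid and of phenylpropanoids at large, did not fall: PAL2 rose from 2157 and 2332 to 3282 and 3039, PAL4 rose by 0.34 on the log2 scale, and PAL1 (0.06) and PAL3 (-0.13) did not pass. In all, 4 of these 8 further synthesis genes were lower and 2 higher, beside 26.8% lower and 27.0% higher over all genes tested. ICS1 was the one gene of the isochorismate route that rose besides its relative ICS2, while the 2 genes that act after EDS5 fell.

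The EDS1 family changed little. EDS1 (AT3G48090), the shared partner of the family, stood at 612 and 671 in control and at 550 and 565 in fip1-2. PAD4 (AT3G52430) stood at 329 and 363 in control and at 284 and 239 in fip1-2. Both fip1-2 libraries lay below both control libraries for each gene, and the decreases were small. EDS1 went from 641 ± 41.5 to 557 ± 10.3 (log2 fold change -0.20 ± 0.07 SE, limma adjusted p = 0.0305). PAD4 went from 346 ± 24.4 to 261 ± 31.9 (log2 fold change -0.41 ± 0.10 SE, limma adjusted p = 0.00426). SAG101 (AT5G14930), the other partner of EDS1, stood at 347 and 394 in control and at 340 and 344 in fip1-2, a difference that did not pass (log2 fold change -0.11, 95% interval -0.30 to 0.08, limma adjusted p = 0.306). The call of EDS1 was lost in 6 of 16 alternatives, among them leaving out control replicate 2 (-0.13), fip1-2 replicate 1 (-0.18) or fip1-2 replicate 2 (-0.22), and its adjusted p ran from 0.0067 to 0.225; that of PAD4 was lost without fip1-2 replicate 2 (-0.28) and without a variance trend, with an adjusted p between 0.000239 and 0.0691. AT3G48080, a listed relative of EDS1, shares 92 of the 2521 words of 31 bases of the EDS1 transcript (3.65%), so some reads could be split between them; it stood at 166 and 159 in control and at 163 and 179 in fip1-2 and did not pass.

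NPR1 (AT1G64280), the salicylic acid receptor and coactivator of PR1, stood at 781 and 815 in control and at 786 and 821 in fip1-2. It was the only one of the 10 genes whose groups overlapped. Its log2 fold change was 0.01, with a 95% interval from -0.13 to 0.15 (limma adjusted p = 0.915). Genes on the opposite strand, AT1G64270 and AT1G08667, overlap it over 38 and 214 bases and are not among the genes used here. NPR3 (AT5G45110), a related receptor that represses, fell from 722 and 748 to 569 and 606 (log2 fold change -0.32 ± 0.07 SE), and NPR4 did not pass (-0.08 ± 0.09 SE). AT4G26120, the listed relative of NPR1, did not pass either (0.39 ± 0.17 SE, limma adjusted p = 0.0669). Among proteins that bind NPR1, NIMIN3 (AT1G09415) fell from 377 and 368 to 99.4 and 62.3, which is 21.7% of control, and NIMIN2 fell with a log2 fold change of -1.10 ± 0.31 SE. Of the TGA factors TGA3 and TGA6 fell (-0.42 and -0.38), TGA7 rose (0.36), and TGA2, TGA4 and TGA5 did not pass. TGA1 rose by a small amount (0.16 ± 0.06 SE, limma adjusted p = 0.029). In all, 5 of the 11 tested genes of receptors, NIMIN proteins and TGA factors were lower and 2 higher, with a median of -0.20. Over all genes tested 26.8% were lower and 27.0% higher.

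ACD6 (AT4G14400), a membrane protein with ankyrin repeats that promotes salicylic acid signalling in leaves, stood at 728 and 799 in control and at 52.2 and 63.3 in fip1-2. The control libraries agreed closely and the mutant libraries did too, so the groups lay far apart. The fall was 13.2-fold, from 764 ± 49.9 to 57.8 ± 7.83 (log2 fold change -3.68 ± 0.12 SE, limma adjusted p = 1.55e-11). Over 16 alternatives the log2 fold change ran from -3.82 to -3.55. It ranked seventh from the lowest of all 19931 genes tested. AT4G14390, a listed relative of ACD6 that shares 81 of its 3198 words of 31 bases (2.53%), stood at 49.0 and 37.9 in control and at 51.2 and 39.4 in fip1-2. Its log2 fold change of 0.06 (95% interval -0.43 to 0.55) did not pass, and the interval lies far above that of ACD6 (-3.94 to -3.43).

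PR1 (AT2G14610), for a small secreted protein and the usual marker of salicylic acid signalling, stood at 96.1 and 340 in control and at 6.15 and 19.7 in fip1-2. PR2 (AT3G57260, BGL2 in the reference), for a beta-1,3-glucanase, stood at 103 and 362 in control and at 9.22 and 14.5 in fip1-2. Every mutant library lay well below every control library for both genes, and control replicate 2 was high against control replicate 1. The fall of PR1 was 16.8-fold, from 218 ± 172 to 12.9 ± 9.60 (log2 fold change -3.78 ± 0.47 SE, limma adjusted p = 1.11e-05). For PR2 it was 19.6-fold, from 232 ± 183 to 11.9 ± 3.76 (log2 fold change -3.84 ± 0.40 SE, limma adjusted p = 1.95e-06). The mutant values rest on 6 and 19 reads for PR1 and on 9 and 14 for PR2.

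Single libraries moved the size of both falls. Without control replicate 1 the log2 fold changes were -4.68 for PR1 and -4.74 for PR2, and without control replicate 2 they were -2.88 and -2.94. Without fip1-2 replicate 1 that of PR1 was -3.08 and without fip1-2 replicate 2 it was -4.49. With robust variance estimation, which lets single genes keep a wide variance, both calls were lost (adjusted p = 0.103 for PR1 and adjusted p = 0.0606 for PR2). These were the highest values over the alternatives. The lowest, 4.87e-58 and 2.81e-62, came from the limma fit with a replicate block. Replicate numbers did not pair the libraries, so these lowest values are not read as stronger evidence.

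PR5 (AT1G75040), for a thaumatin-like protein, did not follow PR1 and PR2. It stood at 117 and 114 in control and at 98.3 and 81.0 in fip1-2. Both mutant libraries were below both control libraries by a small margin, and the difference did not pass (log2 fold change -0.36, 95% interval -0.69 to -0.04, limma adjusted p = 0.0584). PR5 passed in 3 of 16 alternatives, with an adjusted p between 0.0173 and 0.314, one of them the fit with a replicate block (0.0495). In the main limma fit its interval lay above those of PR1 (-4.80 to -2.77) and PR2 (-4.71 to -2.98), with no overlap. Intervals were not compared under robust variance estimation, where PR1 and PR2 lost their calls.

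Relatives of the pathogenesis-related genes also differed. PRB1 (AT2G14580), a basic homologue of PR1, fell from 65.3 and 80.6 to 9.22 and 8.30, which is 12.0% of control (log2 fold change -2.79 ± 0.27 SE, limma adjusted p = 7.69e-07). Unlike PR1, its control libraries stood close together. BG3 (AT3G57240), a glucanase gene related to PR2, had 11 and 5 reads in control and none in fip1-2, and was not tested. Its control mean was 2.49-fold above a floor of 3 reads per fip1-2 library, a ratio that allows for no counting error in control. BG1 had 3 and 1 control reads and none in fip1-2. TLP-3 (AT1G75030), a relative of PR5, stood at 112 and 95.1 in control and at 118 and 118 in fip1-2 and did not pass (0.19 ± 0.15 SE), and AT1G75050 had at most 3 reads in any library. Of the 10 listed relatives, 7 were tested, of which 2 were higher and 1 lower. Over all genes tested 27.0% were higher and 26.8% lower.

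**Figure D2:**
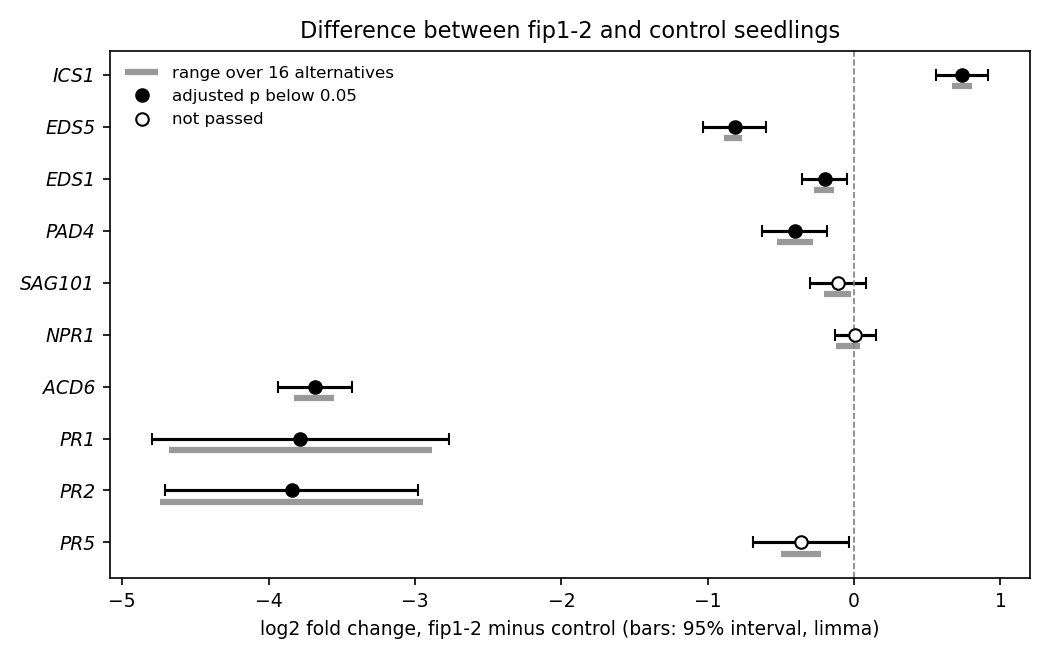
Log2 fold change of fip1-2 against control for the 10 genes; points are limma estimates (filled where the adjusted p was below 0.05), black bars 95% intervals and grey bars the range over 16 alternatives. The intervals of ACD6, PR1 and PR2 lie below -2.7, those of NPR1 and SAG101 include 0, and ICS1 alone lies above 0.

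In both control libraries and both mutant libraries 8 of the 10 genes had every fip1-2 value below every control value, against 39.0% of all genes tested, and 1 gene had every fip1-2 value above, against 38.2%. The members were placed among all genes by rank. PR2, PR1 and ACD6 were the fifth, sixth and seventh from the lowest log2 fold change, while EDS5 had 5.65% of genes below it, PAD4 17.3%, PR5 19.9%, EDS1 31.7%, SAG101 39.6% and NPR1 51.2%. ICS1 had 92.3% of genes below it. The set thus held a trio at the lower edge, EDS5 and ICS1 toward either side, and 5 genes in the body of the distribution.

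**Figure D3:**
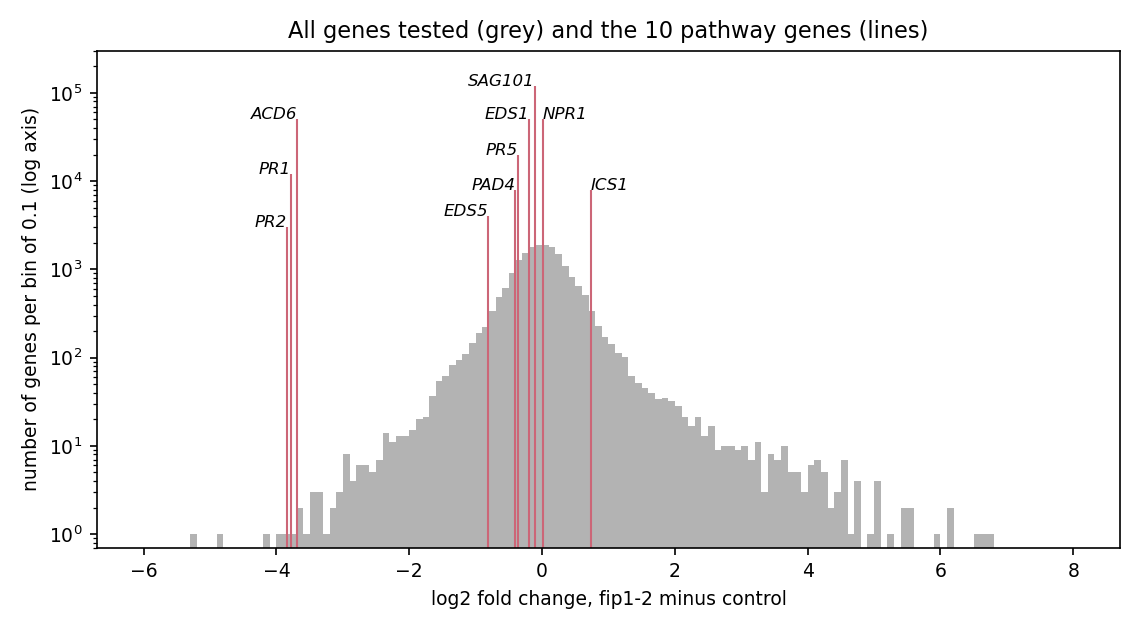
Log2 fold change (x axis) of all 19931 genes tested, as number of genes per bin (log axis), with the 10 pathway genes as vertical lines whose height has no meaning. PR2, PR1 and ACD6 lie at the sparse lower edge, near -3.8, and the other 7 genes lie between -0.82 and 0.74.

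The order of expression among the genes changed with these differences. Counts were divided by the length of the longest annotated transcript in kb, which assumes reads along the whole transcript as the extract protocol describes; the series' design text names poly(A) tags instead, for which counts would not scale with length. On this scale of levels per kb NPR1 was highest in both groups, at 305 ± 9.27 in control and 307 ± 9.54 in fip1-2. In control it was followed by EDS1 (251 ± 16.3), PR1 (242 ± 191), ACD6 (237 ± 15.5), SAG101 (178 ± 16.05), PR2 (157 ± 124), PAD4 (153 ± 10.8), ICS1 (144 ± 9.42), EDS5 (137 ± 7.33) and PR5 (105 ± 2.35). Library ranges of neighbours were apart only between NPR1 and EDS1, between ACD6 and SAG101 and between EDS5 and PR5. In fip1-2 ICS1 came second at 240 ± 1.22, and EDS1 (218 ± 4.02), SAG101 (164 ± 1.17) and PAD4 (116 ± 14.1) followed. The last places went to PR5 (81.9 ± 11.2), EDS5 (77.3 ± 1.68), ACD6 (17.9 ± 2.42), PR1 (14.3 ± 10.6) and PR2 (8.04 ± 2.54), where PR5 and EDS5, ACD6 and PR1, and PR1 and PR2 overlapped.

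Genes that respond to salicylic acid fell with PR1 and PR2. Of 9 listed responsive genes 7 were tested, of which 6 fell and none rose, with a median log2 fold change of -2.27. Over all genes tested 26.8% were lower and 27.0% higher. LURP1 (AT2G14560), named for its late rise under downy mildew, fell from 198 and 164 to 14.3 and 19.7 (log2 fold change -3.27 ± 0.21 SE, limma adjusted p = 1.19e-08). AIG1 (AT1G33960), induced by a bacterial effector, fell from 65.3 and 118 to 8.19 and 13.5, and AED1 (AT5G10760), an apoplastic protein gene that depends on EDS1, from 133 and 151 to 16.4 and 30.1. Fip1-2 values of the 3 genes were from 9.41% to 16.4% of control. The control libraries of LURP1 and AED1 stood close together, with ratios of replicate 2 to replicate 1 of 0.829 and 1.14.

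The other responsive genes were weaker or less even. PNP-A, for a natriuretic peptide, fell from 19.2 and 25.2 to 4.10 and 2.08 (log2 fold change -2.27, or -1.45 with a pseudocount of 8), and CRK6, a receptor kinase gene, fell with a log2 fold change of -1.60 ± 0.40 SE. SAG13 stood at 15.4 and 58.2 in control and at 13.3 and 11.4 in fip1-2, and its call (log2 fold change -1.17, limma adjusted p = 0.0391) was lost in 7 alternatives, among them without control replicate 2 (-0.28; -2.07 without control replicate 1). GRX480, a glutaredoxin gene induced through NPR1 and TGA factors, did not pass (-0.25 ± 0.18 SE). CRK7 had 6 and 19 reads in control and none in fip1-2, and was not tested. Its control mean was 3.91-fold above the same floor, again with no counting error allowed in control. AT3G60420, also listed, had no reads in any library and was not tested.

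WRKY genes of the pathway were lower as well. Of 7 listed, 6 were tested, and 4 fell and none rose, with a median log2 fold change of -1.01. Beside this, 26.8% of all genes tested were lower and 27.0% higher. WRKY70 (AT3G56400), which promotes salicylic acid responses, fell from 320 and 306 to 176 and 144 (log2 fold change -0.96 ± 0.11 SE), and WRKY54, its close relative, from 49.0 and 42.7 to 15.4 and 13.5. WRKY18 (AT4G31800) fell from 291 and 531 to 168 and 154 (log2 fold change -1.28 ± 0.19 SE), a call lost with robust variance estimation; without control replicate 2 it was -0.85 and without control replicate 1 -1.71. Its control libraries also differed in the direction of PR1 and PR2.

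Genes that modify salicylic acid and genes upstream of it showed no common direction. DLO1 (AT4G10500), a hydroxylase that removes salicylic acid, rose from 47.1 and 54.4 to 125 and 110 (log2 fold change 1.18 ± 0.17 SE, limma adjusted p = 4.2e-05), while MES9, an esterase of methyl salicylate, fell from 44.2 and 54.4 to 23.6 and 15.6. UGT74F2, a glucosyltransferase, rose by 0.15 ± 0.05 SE and lost that call in 6 of 16 alternatives, and DMR6, UGT74F1 and UGT76B1 did not pass. In this list 2 of 6 tested genes were higher and 1 lower, beside 27.0% higher and 26.8% lower over all genes tested. Of the pipecolate branch, which makes the mobile signal of systemic resistance, FMO1 (AT1G19250) fell from 110 and 103 to 48.1 and 45.7 and AT5G52810 from 233 and 226 to 163 and 165, and ALD1, at 7.69 and 20.4 against 14.3 and 12.5, did not pass.

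Among immune receptors, their helpers and regulators, ADR1 (AT1G33560), a helper of EDS1 and PAD4, rose from 192 and 229 to 339 and 349, and ADR1-L1 from 1643 and 1598 to 2162 and 2210. AT5G66900 fell from 307 and 296 to 183 and 211, and NDR1, a membrane protein gene of disease resistance, fell with a log2 fold change of -1.04 ± 0.19 SE. CPR5 rose (0.31 ± 0.08 SE), and SNC1, ADR1-L2 and AT5G66910 did not pass. Over the 7 lists together, 54 genes were listed and 49 tested, of which 24 were lower and 9 higher, with a median log2 fold change of -0.32, beside 26.8% lower, 27.0% higher and a median of -0.0043 over all genes tested; PBS3 and LURP1 were the 2 with -3 or less. By list the medians were -2.27 for responsive genes, -1.01 for WRKY genes, -0.48 for the pipecolate branch, -0.31 for synthesis, -0.20 for hormone receptors with NIMIN and TGA genes, 0.10 for modification and 0.10 for immune receptors and helpers.

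**Figure D4:**
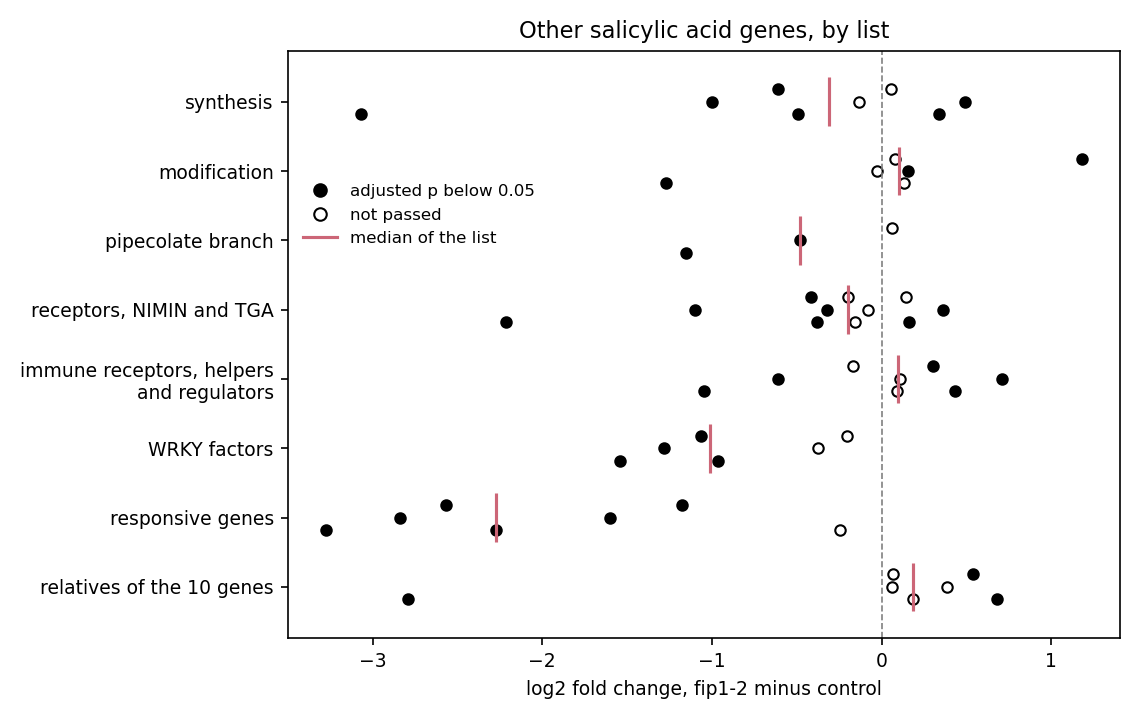
Log2 fold change of further salicylic acid genes by list and of relatives of the 10 genes; each point is 1 gene (filled where the limma adjusted p was below 0.05) and red lines are list medians. The medians of responsive genes (-2.27) and WRKY genes (-1.01) lie lowest, and DLO1, at 1.18, is the highest point.

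Markers of jasmonate and ethylene defence did not move as one. PDF1.2 (AT5G44420), a defensin gene of that branch, fell from 68.2 and 46.6 to 1.02 and 7.27 (log2 fold change -3.46 ± 0.45 SE, limma adjusted p = 1.72e-05). Leaving out fip1-2 replicate 2 gave -4.27, leaving out fip1-2 replicate 1 gave -2.66, and a pseudocount of 8 gave -2.46. The chitinase gene PR3 fell from 1394 and 1179 to 787 and 814 and PR4 fell with a log2 fold change of -0.40 ± 0.06 SE, while VSP2, a wound and jasmonate marker, rose from 1428 and 1243 to 2126 and 2032. A low level was thus not limited to salicylic acid markers among the listed defence genes.

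The 2 control libraries differed in PR1 and PR2 more than in most genes. Control replicate 2 over control replicate 1 was 3.54 for PR1 and 3.52 for PR2, while the middle 95% of 17187 genes with a mean of at least 50 ran from 0.79 to 1.28. A ratio of 3 was reached by 7 of these genes, and in the other 5 it was higher than in PR1 and PR2. The ratio was between 0.969 and 1.14 for the other 8 pathway genes, ACD6 (1.10) and EDS5 (1.08) included. Among responsive genes SAG13 (3.79), CRK6 (1.90) and AIG1 (1.81) were higher in control replicate 2 and LURP1 (0.829) was lower. The fip1-2 pair had a ratio of 3.21 for PR1, on few reads.

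**Figure D5:**
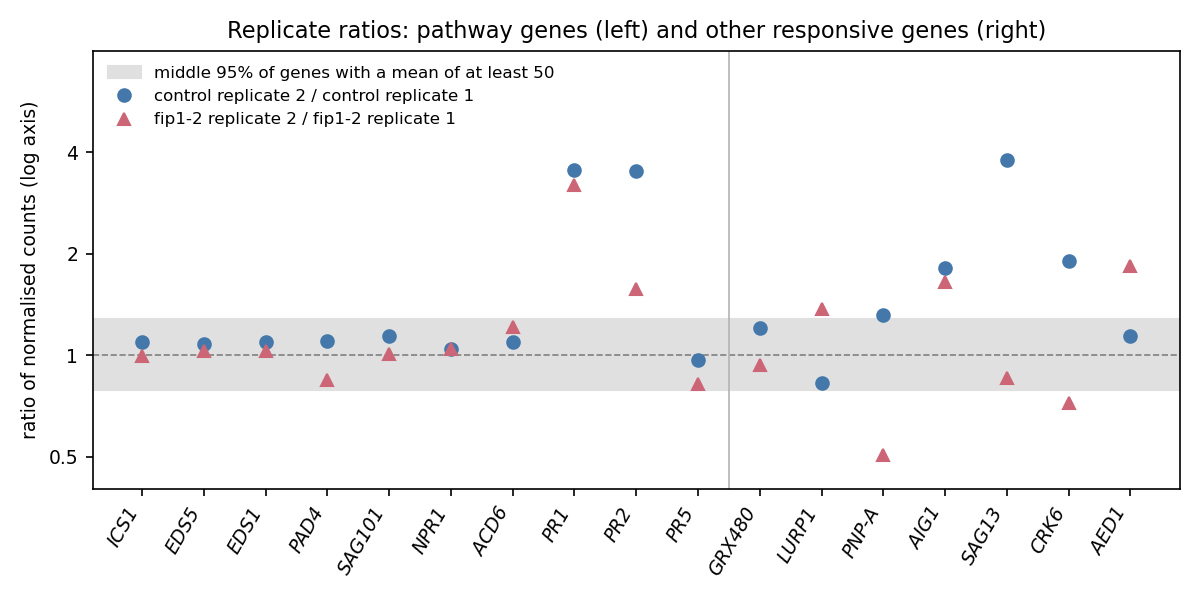
Ratio of replicate 2 to replicate 1 (log axis) within control (circles) and within fip1-2 (triangles) for the 10 pathway genes and 7 further responsive genes; the grey band holds the middle 95% of control ratios over genes with a mean of at least 50. PR1 and PR2 lie near 3.5 within control, outside the band, and ACD6 and LURP1 lie inside it.

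Other tissue markers moved between the same groups, where 26.8% of all genes tested were called lower and 27.0% higher. Shoot markers, summed over 7 genes, were at 388946 and 378222 in control and at 403253 and 427888 in fip1-2, with 3 genes higher and 2 lower; RBCS1A (log2 fold change 0.14 ± 0.08 SE), which makes up much of the sum, did not pass, LHCB3 rose by 0.31 ± 0.07 SE, and CA1 and DRT112 fell (-0.51 and -0.48). Root markers, also 7, summed to 5714 and 5600 in control and to 12655 and 11983 in fip1-2, with 6 higher and 1 lower. PRP3 (1.87) and PHT1;1 (0.63) were among those that rose, and MYB36 (-0.80) was the one that fell. Seed markers summed to 74.9 and 25.2 in control and to 3231 and 1198 in fip1-2, with all 5 higher. Among them were CRC (AT4G28520, CRU3 in the reference), at 5.98, and OLEO1, at 5.57. CRC lost its call with robust variance estimation (adjusted p = 0.0993), and its log2 fold change was 7.49 without control replicate 1 and 4.47 without control replicate 2, and 5.09 and 6.87 when fip1-2 replicate 1 or fip1-2 replicate 2, in that order, was left out. Of 4 leaf senescence markers SAG12 had at most 1 read in any library, SAG20 fell (-1.005 ± 0.06 SE), SAG29 rose (5.50 ± 0.19 SE), and ERD1 rose by 0.14, which became -0.11 when length and GC were corrected for. The call of ERD1 was also lost with DESeq2, after quantile normalization, without a variance trend and without a filter on low values. The part of these shifts in the values of PR1, PR2 and ACD6 was not tested, and in whole seedlings fewer cells of a type and less RNA per cell cannot be told apart.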

How the data were processed

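Whole-seedling libraries of 2 control and 2 fip1-2 samples were grouped by title. The submitters' processing notes list edgeR, HTSeq, HISAT2, FastQC and CASAVA 1.4 without roles or order, and name neither build nor annotation. The authors deposited a normalised signal per gene, which the file headers name as output of htseq-count; the values show 1 scaling factor per library. Each value was a whole multiple of the smallest in its column (100% within 1e-06), so whole reads were recovered. Totals per library limit the precision; floors cover counting error alone, as the labels' protocols name no molecular identifiers to set PCR copies apart.

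The test was that of limma 3.58.1 in R 4.3.3 on log2(value + 2), for genes whose mean reached 10 (eBayes with a variance trend), two-sided, with Benjamini-Hochberg adjustment over 19931 genes and a threshold of 0.05. The deposited scaling was kept. The edgeR 4.0.16 quasi-likelihood test and DESeq2 1.42.0 on recovered reads were among 16 alternatives. Simulated data for fip1-2 against control had 19917 genes tested. In them limma called 69% of 67 genes altered 1.5-fold, 88% of 65 altered 2-fold and 100% of 66 altered 4-fold. It also called 6 of 19719 unchanged genes. The altered share was thus far below the 53.8% of genes called in the deposited data. Each simulated gene was given the spread typical of its level, so genes with wider replicates, such as PR1 and PR2, were not covered. Whether these rates hold for the deposited data was not tested. The members and lists were chosen with earlier results of these data known, so no list was tested. The genes named are FIP1, the members, their listed relatives, up to 3 genes with the smallest p of each further list, and the 2 most abundant of each marker list; others in the text were chosen after their values were seen. Names come from RefSeq's TAIR10.1, which held 27444 identifiers of the table (99.2%), and 9 listed genes without a name there are given by identifier. Replicate libraries were distinct, with a chi-square of 3.03 per gene between the control libraries and 2.79 between the fip1-2 libraries, above the sampling noise. One promoter window is not reported here.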

Additional observations from a re-analysis of the deposited data

How the results depend on the processing

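ICS1, EDS5 and ACD6 kept their direction and call under all 16 alternatives; of 160 values of the 10 genes, 143 kept both, 10 lost a call, 3 gained one and 4 changed sign, all 4 for NPR1. Between 4 and 7 of the 10 genes were called lower, 4 without fip1-2 replicate 2, with robust variance estimation or without a variance trend, and 1 was called higher under each. DESeq2 called 3443 of all genes lower, against 5342. The median of the 10 genes ran from -0.52 to -0.25 with single libraries left out. That of the other salicylic acid genes ran from -0.46 to -0.28, and was -0.18 with a mean of at least 50, where 38 genes and 16 calls of lower values were left of 49 and 24. Signs changed for genes that had not passed: NPR1 at -0.0157 after quantile normalization, -0.12 with the length and GC trend removed and from -0.0225 to 0.0407 with a library left out; ALD1 at -0.13 after quantile normalization, -0.0617 with edgeR and -0.0633 with DESeq2 and from -0.54 to 0.67 with a library left out; AT4G14390 at -0.0101 with the trend removed and from -0.12 to 0.24 with a library left out; and AT3G48080 at -0.0137 with the trend removed. ERD1, which had passed, was at -0.11 with the trend removed. The causes were not tested. The replicate numbers did not pair the libraries (correlation of same-numbered deviations -0.0117); with a replicate block 5487 genes were lower and 5517 higher, 7 of the 10 among the former. Depth limits PR1 and PR2 in fip1-2, which rest on 6 to 19 reads.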

Other observations

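Besides PR1 and PR2, 5 genes whose mean of all 4 libraries reached 50 were at least 3-fold higher in control replicate 2 than in control replicate 1; they were singled out after their values were seen. CYP94B3 (AT3G48520), for an enzyme that oxidises the active jasmonate, stood at 99.9 and 424 in control and at 84.0 and 85.1 in fip1-2. ABR1 (AT5G64750), an ethylene response factor gene, stood at 35.5 and 175 in control and at 28.7 and 38.4 in fip1-2. AT2G38240 stood at 41.3 and 208 in control and at 85.0 and 77.8 in fip1-2. In these 3 genes control replicate 1 was nearer to the fip1-2 libraries than control replicate 2 was, while for PR1 and PR2 even the lower control library was far above both mutant libraries. AT1G13609 and AT3G53040 were low in control, at 0.961 and 6.79 and at 2.88 and 10.7, and high in fip1-2, at 394 and 309 and at 250 and 179.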
